A study of Homo sapiens with 3 samples.

Results

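The BCL2 family of apoptosis regulators was followed here in RNA-seq of T24 cells, an established human bladder carcinoma line. Its 10 members were taken by gene symbol, and all were among the 58381 genes of the count table. They comprise the anti-apoptotic BCL2, BCL2L1, MCL1 and BCL2L2, the effectors BAX and BAK1, and the BH3-only genes BBC3, PMAIP1, BCL2L11 and BID.

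There were 3 libraries, 1 per condition. Per the labels, T24 cells were infected with lentivirus and then selected in puromycin. By the same labels the virus carried either the control pLKO.1 vector or an shRNA against HDAC6, a mostly cytoplasmic deacetylase. The paper's Results instead name parental T24 cells as the irradiated comparator, and the sources used here do not settle which is meant. If parental cells are meant, vector, selection and shRNA cannot be told apart in comparisons with the knockdown cells. Ctrl was not irradiated, RT was the control cells exposed to 10 Gy from a 137Cs source, and RT + shHDAC6 was the knockdown cells exposed to the same 10 Gy. The time between irradiation and RNA extraction is not given in the sources used here. There was no unirradiated knockdown library, so these libraries do not measure the effect of the shRNA without irradiation. The knockdown came from a single shRNA sequence in a single line. With 1 library per condition no difference could be set against replicate spread, and no p-value is given. Each log2 ratio below is of counts scaled by TMM (trimmed mean of M-values, which adjusts library totals for composition), with a 95% Clopper-Pearson interval that covers counting error only. A gene is called higher or lower where it differed by at least 1.5-fold, which is 0.585 on the log2 scale.

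The family decides whether the outer membrane of the mitochondrion stays intact. BAX and BAK1 oligomerise there and let cytochrome c out, which sets off the caspases. BCL2, BCL-XL (the product of BCL2L1), MCL1 and BCL-w (BCL2L2) hold the effectors back by gripping their BH3 helix in a groove. The BH3-only proteins PUMA (BBC3), NOXA (PMAIP1), BIM (BCL2L11) and BID use the same helix to occupy that groove or to activate the effectors directly. Ionising radiation is known to engage the pathway through DNA damage signalling.

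The BH3 core is the stretch that all 10 members share, and its coding sequence is shown for that reason. In the effectors and BH3-only proteins it belongs to the helix that the groove of the anti-apoptotic proteins grips. Each line gives 45 bases of the canonical GENCODE release 44 transcript on GRCh38, 5′ to 3′ on the coding strand, with capitals on the codons of the first hydrophobic residue, the small residue and the aspartate of the core. The anti-apoptotic members come first, then the effectors, then the BH3-only members.
BCL2: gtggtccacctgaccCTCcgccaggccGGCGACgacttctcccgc
BCL2L1: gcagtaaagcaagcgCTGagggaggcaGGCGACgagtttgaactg
MCL1: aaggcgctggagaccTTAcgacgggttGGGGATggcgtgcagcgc
BCL2L2: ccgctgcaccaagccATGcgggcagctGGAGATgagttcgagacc
BAX: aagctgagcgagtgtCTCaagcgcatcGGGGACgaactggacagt
BAK1: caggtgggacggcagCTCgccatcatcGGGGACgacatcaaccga
BBC3: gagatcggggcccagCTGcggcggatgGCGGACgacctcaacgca
PMAIP1: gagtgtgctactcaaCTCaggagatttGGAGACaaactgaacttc
BCL2L11: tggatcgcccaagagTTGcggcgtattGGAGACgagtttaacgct
BID: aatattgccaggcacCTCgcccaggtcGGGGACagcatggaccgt

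The pattern searched was leucine or methionine, 3 residues of any kind, glycine or alanine, then aspartate, read in frame along each coding sequence. It occurred exactly 1 time in each member, while 28.8% of the 20046 canonical coding transcripts held it at least once. Of the 10 cores, 9 opened with leucine, and BCL2L2 opened with methionine. The small residue was glycine in 9 and alanine in BBC3. Pairwise identity over all 45 bases, the capitalised codons included, was lowest for BCL2L2 and BID at 26.7%. It was highest for BAK1 with BID and for BBC3 with BCL2L11, both at 62.2% (median 44.4% of 45 pairs). Identity outside the capitalised codons was not computed. Every stretch lay within a single coding exon, for example chr19:47226579-47226623 in exon 3 of 4 of BBC3, chr1:150578865-150578909 in exon 1 of 3 of MCL1 and chr22:17739415-17739459 in exon 4 of 6 of BID. The table holds 1 value per gene, so isoforms that keep or lose these exons were not separated.

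The libraries held between 35424086 and 41811165 counts, with Ctrl the deepest, and 20527 genes had at least 10 counts in any library. All 10 members passed this minimum. Scaling by library totals in place of TMM moved every ratio by the same amount, namely -0.22 when RT is set against Ctrl, 0.084 when RT + shHDAC6 is set against RT and -0.13 when it is set against Ctrl. Several family members changed by less than these shifts, and the members whose direction depends on the scaling are named with their values. Of 15 urothelial and epithelial markers, 10 had at least 100 counts in each library, but the uroplakins and KRT20, which define mature urothelium, had at most 18 counts in any library. The 9 markers of blood, endothelial and muscle cells summed to between 22.4 and 34.3 CPM (counts scaled to a total of 1000000 after TMM) in each library, against 390.0 to 493 CPM for the epithelial list. None of the 9 was at 0 in any library, and the highest had 489 counts. Of these 9 markers 7 were tested. In RT against Ctrl 6 of the 7 were below 0 and 3 were called lower, with a median of -0.56, where 20.5% of all genes were lower. The 3 were PECAM1 (489, 209 and 323 counts, log2 ratio -0.79), MYH11 (441, 214 and 257 counts, -0.61) and HBB (33, 11 and 15 counts, -1.15), the last named after its value was seen. In RT + shHDAC6 against RT 6 of the 7 were above 0 and 0 were called, with a median of 0.26. Of all genes, 11.2% were higher and 11.3% lower there. Against Ctrl the knockdown library had 2 called lower, beside 20.6% of all genes, which were PTPRC (120, 66 and 57 counts, -0.70) and HBB (-0.76).

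Of the epithelial list 11 genes were tested. In RT against Ctrl 9 of them were below 0, with a median of -0.46. KRT18 was called higher (0.62, but 0.41 with library totals), where 14.7% of all genes were. KRT19 (-0.67) and UPK1A, with its 18, 2 and 2 counts, were called lower, where 20.5% of all genes were. In RT + shHDAC6 against RT 7 of the 11 were above 0, with a median of 0.23. There 3 were called lower, beside 11.3% of all genes, which were KRT7 (-2.75), GATA3 (-1.07) and PPARG (-0.95). These 3 and UPK1A were the genes called lower against Ctrl, where KRT18 was called higher (0.68), beside 20.6% and 14.0% of all genes. Both marker lists thus had medians below 0 in RT against Ctrl and above 0 in RT + shHDAC6 against RT, the directions in which BBC3 and MCL1 also lay. The part of what these lists reflect in the family values was not tested.

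HDAC6 itself had 3098 counts in Ctrl, 2383 once irradiated and 2170 with the shRNA added. The knockdown library was thus at 87.2% of RT. On the log2 scale this is -0.20 (95% interval -0.28 to -0.11), and it stayed between -0.21 and -0.11 under 4 scalings. The mRNA of the target was only slightly lower in the library labelled RT + shHDAC6, and no library here gives its level in unirradiated knockdown cells. The paper reports lower HDAC6 mRNA by qPCR and lower HDAC6 protein by Western blot in the knockdown cells than in control cells.

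In the RT library the family moved in both directions. In these bulk libraries fewer cells with a transcript and less of it per cell cannot be told apart. BBC3 was 2.95-fold lower than in Ctrl and was the only member called lower, where 20.5% of all 20527 genes were. BID was 1.54-fold higher and was the only member called higher, where 14.7% of all genes were. MCL1 was 1.40-fold lower and BCL2L11 1.24-fold lower, neither reaching 1.5-fold. The median log2 ratio of the 10 members was 0.0022, beside -0.060 for all genes tested, with 5 members above 0 and 5 below. The sign held under all 4 scalings for 5 members, namely MCL1, BAX, BBC3, BCL2L11 and BID. With library totals the median was -0.22, no member was called higher, and MCL1 joined BBC3 as lower. The markers of other cells had a median of -0.56 in the same comparison and the epithelial markers -0.46.

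With HDAC6 targeted as well as irradiation, BBC3 was 1.62-fold higher than in RT and was the only member called, where 11.2% of all genes were called higher and 11.3% lower. BCL2L2, PMAIP1 and MCL1 were 1.41-fold, 1.34-fold and 1.30-fold higher, and BCL2 was 1.22-fold lower. The median of the members was 0.13, beside -0.0069 for all genes tested, with 7 members above 0. The sign held under all 4 scalings for 8 members, the exceptions being BCL2L11 and BID. The markers of other cells had a median of 0.26 here and the epithelial markers 0.23. Both comparisons use the RT library, so a high or low value there enters them with opposite sign.

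The comparison of RT + shHDAC6 with Ctrl, which does not use the RT library, called only BBC3, 1.81-fold lower, where 20.6% of all genes were lower and 14.0% higher. BID had a log2 ratio of 0.584, just under the limit of 0.585. PMAIP1 was 1.40-fold higher and BCL2L2 was 1.38-fold higher, while BCL2L11 was 1.28-fold lower. The median of the members was 0.071, beside -0.055 for all genes tested, and with library totals it was -0.063. BAX and BAK1 were the members whose sign changed with the scaling.

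**Figure D1:**
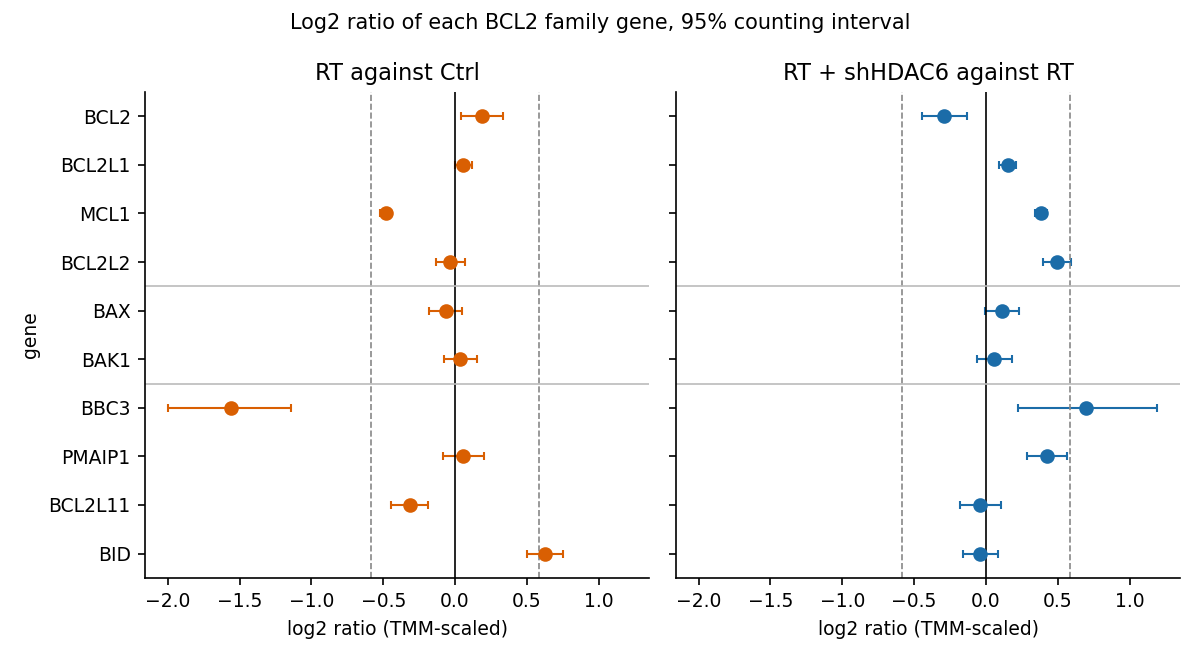
Log2 ratio of TMM-scaled counts (x axis) of each of the 10 members (y axis) for RT against Ctrl (left) and RT + shHDAC6 against RT (right), with 95% counting intervals as bars and the 1.5-fold limits as dashed lines. BBC3 lies farthest from 0 in both panels, at -1.56 and 0.70, with the widest intervals.

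The anti-apoptotic gene with the most reads was MCL1 (ENSG00000143384, GRCh38 chr1:150560895-150579738, minus strand), whose product is short-lived and restrains BAK1 in particular. The counts of Ctrl, RT and RT + shHDAC6 were 15922, 8431 and 11456, or 351, 251 and 327 CPM. Ctrl was the highest library and RT the lowest, and the knockdown library stood close to Ctrl. The log2 ratio was -0.48 for RT against Ctrl (95% interval -0.52 to -0.44), 0.38 for RT + shHDAC6 against RT (0.34 to 0.42) and -0.10 for RT + shHDAC6 against Ctrl (-0.14 to -0.067). The direction of the first 2 did not depend on the scaling, at -0.70 to -0.42 and 0.37 to 0.46. At these depths counting error was small, and the spread between cultures is unknown. About 5.3% of the MCL1 exon bases are shared with ADAMTSL4-AS1 on the same strand, which had at most 100 counts.

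BCL2L1 (ENSG00000171552, chr20:31664452-31723989, minus strand) was next, with 5223, 4016 and 4651 counts in that order, or 115, 120 and 133 CPM. RT and Ctrl differed by no more than counting error, at a log2 ratio of 0.056 (-0.0036 to 0.12), and the value ran from -0.16 to 0.11 across scalings. RT + shHDAC6 was the highest library, at 0.15 above RT (0.088 to 0.21) and 0.21 above Ctrl (0.15 to 0.26), both well under 1.5-fold. BCL2L1 makes the long form BCL-XL and a short pro-apoptotic form by splicing, and the counts here sum both. ABALON lies opposite 41.3% of its exon bases and had at most 4 counts.

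BCL2L2 (ENSG00000129473, chr14:23298790-23311751, plus strand) had 1997, 1444 and 2121 counts, or 44.04, 43.1 and 60.6 CPM. Ctrl and RT were alike at this depth, with a log2 ratio of -0.033 (-0.13 to 0.066) that turned to 0.026 with DESeq2 size factors, and RT + shHDAC6 stood above both. It was 0.49 higher than RT (0.40 to 0.59) and 0.46 higher than Ctrl (0.37 to 0.55). No other anti-apoptotic member stood as far above RT. The gene shares 8.0% of its exon bases with PPP1R3E on the opposite strand, which had 532, 678 and 895 counts and was 0.34 higher in RT + shHDAC6 than in RT. It also shares 16.8% with the readthrough gene BCL2L2-PABPN1 on the same strand, at 53, 32 and 50 counts. The strand setting of the counting is not given in the sources used here, and the part of these neighbours in the BCL2L2 counts was not tested.

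BCL2 (ENSG00000171791, chr18:63123346-63320128, minus strand), the founding member, had 855, 720 and 615 counts, or 18.9, 21.5 and 17.6 CPM. It was the only anti-apoptotic gene that was highest in RT and lowest in RT + shHDAC6. RT was 0.19 above Ctrl (0.042 to 0.33), but this became -0.030 with library totals. RT + shHDAC6 was 0.29 below RT on the log2 scale (ratio -0.29, interval -0.45 to -0.13), and the sign was the same under all scalings. Against Ctrl the knockdown library stood at -0.10 (-0.25 to 0.049), an interval that holds 0.

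With TMM scaling the effectors showed the narrowest range of the family. BAX (ENSG00000087088, chr19:48954815-48961798, plus strand) had 1504, 1064 and 1200 counts, or 33.2, 31.7 and 34.3 CPM. BAK1 (ENSG00000030110, chr6:33572547-33580293, minus strand) had 1393, 1057 and 1148 counts, or 30.7, 31.5 and 32.8 CPM. On that scaling all 6 log2 ratios of these genes lay between -0.064 and 0.11, and every one of their intervals held 0. For BAX the ratio was -0.064 for RT against Ctrl (-0.18 to 0.050) and 0.11 for RT + shHDAC6 against RT (-0.0088 to 0.23). For BAK1 the same ratios were 0.037 (-0.080 to 0.15) and 0.057 (-0.065 to 0.18). The ends of the 6 intervals reached from -0.18 to 0.23. For each ratio, a difference within its own interval was not excluded at this depth. Across scalings the ratio of RT against Ctrl ran from -0.28 to -0.0057 for BAX. For BAK1 it ran from -0.18 to 0.095, so its sign depended on the scaling. With library totals both values fell below their TMM counting intervals.

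**Figure D2:**
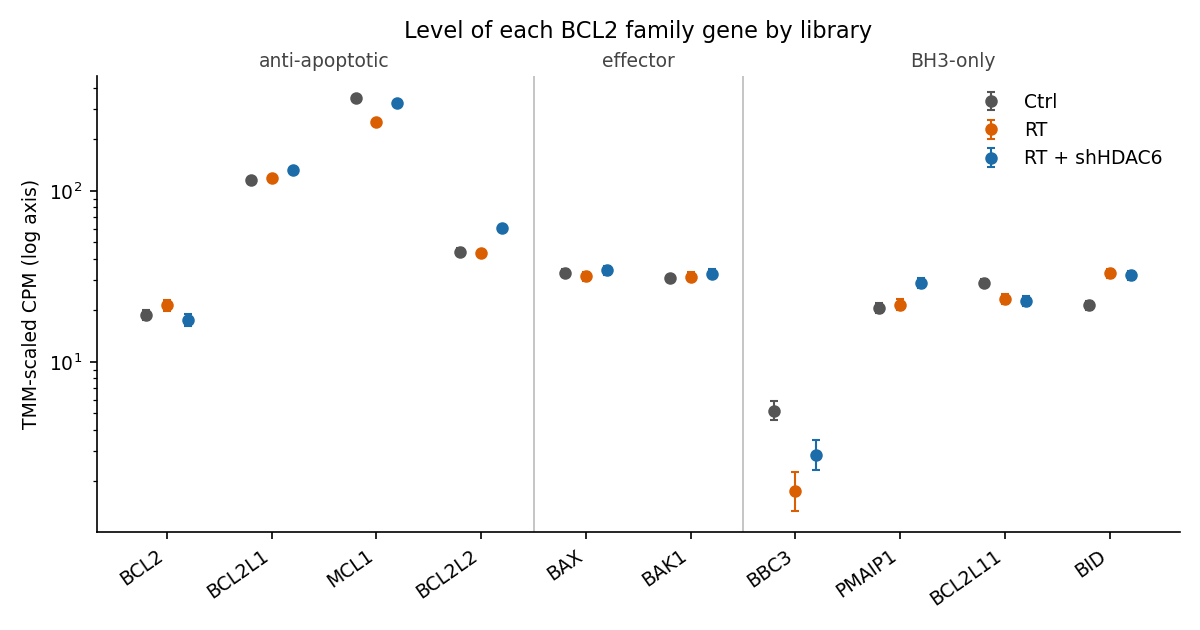
TMM-scaled CPM (log y axis) of the 10 members in Ctrl, RT and RT + shHDAC6, with 95% counting intervals as bars. BBC3 lies at 5.18, 1.76 and 2.86 CPM in that order, while BAX and BAK1 lie between 30.7 and 34.3 CPM in all 3 libraries.

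Among the BH3-only members, BBC3 (ENSG00000105327, chr19:47220822-47232766, minus strand) had the fewest reads and the widest range. The 3 libraries gave 235, 59 and 100 counts in the same order, or 5.18, 1.76 and 2.86 CPM. Ctrl was the highest library and RT the lowest. The log2 ratio was -1.56 for RT against Ctrl (-2.00 to -1.14), and only 3.59% of all genes tested had a lower one. It was 0.70 for RT + shHDAC6 against RT (0.22 to 1.19) and -0.86 for RT + shHDAC6 against Ctrl (-1.21 to -0.52). The interval of the second value reaches well below 1.5-fold, so that call rests on few reads. The interval of the third value also ends short of the limit of 0.585, at -0.52. The lower call in RT against Ctrl holds over its whole interval. Across 4 scalings the ratios ran from -1.78 to -1.50, from 0.69 to 0.78 and from -0.99 to -0.81, following the order of the ratios just given. The microRNA genes MIR3190 and MIR3191 overlap 2.5% and 2.4% of the BBC3 exon bases.

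BID (ENSG00000015475, chr22:17734138-17774770, minus strand), which links death receptors to mitochondria once caspase-8 has cleaved it, ran the other way. It had 970, 1106 and 1123 counts, or 21.4, 33.0 and 32.1 CPM, and both irradiated libraries stood above Ctrl. The log2 ratio was 0.62 for RT against Ctrl (0.50 to 0.75), higher than in 86.6% of all genes, and 0.58 for RT + shHDAC6 against Ctrl (0.46 to 0.71). Between the irradiated libraries it was -0.040 (-0.16 to 0.081), with a sign that depended on the scaling. The first value was 0.41 with library totals, which is under 1.5-fold but still above 0.

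PMAIP1 (ENSG00000141682, chr18:59899996-59904305, plus strand), whose product NOXA binds MCL1, had 939, 723 and 1012 counts, or 20.7, 21.6 and 28.9 CPM. Ctrl and RT did not differ beyond counting error (0.058, interval -0.084 to 0.20), and library totals gave -0.16. RT + shHDAC6 was the highest library, at 0.42 above RT (0.28 to 0.56) and 0.48 above Ctrl (0.35 to 0.61). In RT + shHDAC6 PMAIP1 and MCL1 were thus both above RT.

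BCL2L11 (ENSG00000153094, chr2:111119378-111168444, plus strand) had 1313, 781 and 793 counts, or 29.0, 23.3 and 22.6 CPM. Here both irradiated libraries lay below Ctrl, by ratios of -0.31 (-0.44 to -0.19) and -0.35 (-0.48 to -0.23), and were close to each other at -0.040 (-0.18 to 0.10). BCL2L11 and BID therefore both separated Ctrl from the irradiated libraries, in opposite directions, with no difference between the irradiated libraries beyond counting error. Both contrasts use the same single Ctrl library, so a high or low value there enters both with the same sign. MIR4435-2HG lies opposite 10.8% of the BCL2L11 exon bases and had 1241, 857 and 917 counts. Its log2 ratio in RT against Ctrl was -0.10, and its part in the BCL2L11 counts was not tested.

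Counting which library was highest gives another view of the 10 members. RT + shHDAC6 held the highest level of 5, Ctrl of 3 and RT of 2. RT + shHDAC6 held the lowest level of 2, and Ctrl and RT of 4 each. These orders include pairs that counting error cannot separate.

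Levels can be compared between genes only per length, and were divided by the kilobases of all annotated exons of a gene. On this scale MCL1 led in every library, at 56.4, 40.4 and 52.6 CPM per kb in Ctrl, RT and RT + shHDAC6, followed by BCL2L1 at 27.4, 28.5 and 31.6. BAK1 and BAX came next in all 3 libraries, at 13.9 and 12.8 in Ctrl. PMAIP1 and BCL2L2 followed, at 9.47 and 9.10 in Ctrl, and their counting intervals overlapped in every library. BID stood at 4.84, 7.46 and 7.26, and BCL2L11 at 4.29, 3.45 and 3.36. BBC3 and BCL2 were the lowest, at 1.63 and 1.495 in Ctrl with overlapping counting intervals, but in RT BCL2 was above BBC3 at 1.70 against 0.552. In RT + shHDAC6 the order was the same as in RT, and BAK1 with BAX and BAX with PMAIP1 had overlapping intervals as well. Overlap of intervals is not a test of a difference. The order also depends on the length used. BAX has 2587 bp of annotated exons but a longest transcript of 1358 bp, while BAK1 has 2212 bp by either measure. BAX had the higher CPM in each library, so by longest transcript it would stand above BAK1. The remaining order was not computed with that length.

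By role, the anti-apoptotic genes held 66.8%, 62.4% and 65.0% of the summed level per kb of the 3 libraries, given in the order Ctrl, RT, RT + shHDAC6. The effectors held 18.9%, 20.8% and 18.6%, and the BH3-only genes 14.3%, 16.7% and 16.4%. MCL1 alone held 39.9%, 31.7% and 34.8%. The anti-apoptotic share was lowest in RT, the library in which MCL1 was lowest. Leaving out the members that share exon bases with another gene drops MCL1, BCL2L1 and BCL2L2, which leaves BCL2 as the only anti-apoptotic gene. It therefore cannot check an order in which MCL1 takes part. The share was then 5.22%, 5.44% and 3.97%, highest in RT, and rested on 855, 720 and 615 BCL2 counts. These are shares of mRNA per exon length and say nothing of protein amounts.

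**Figure D3:**
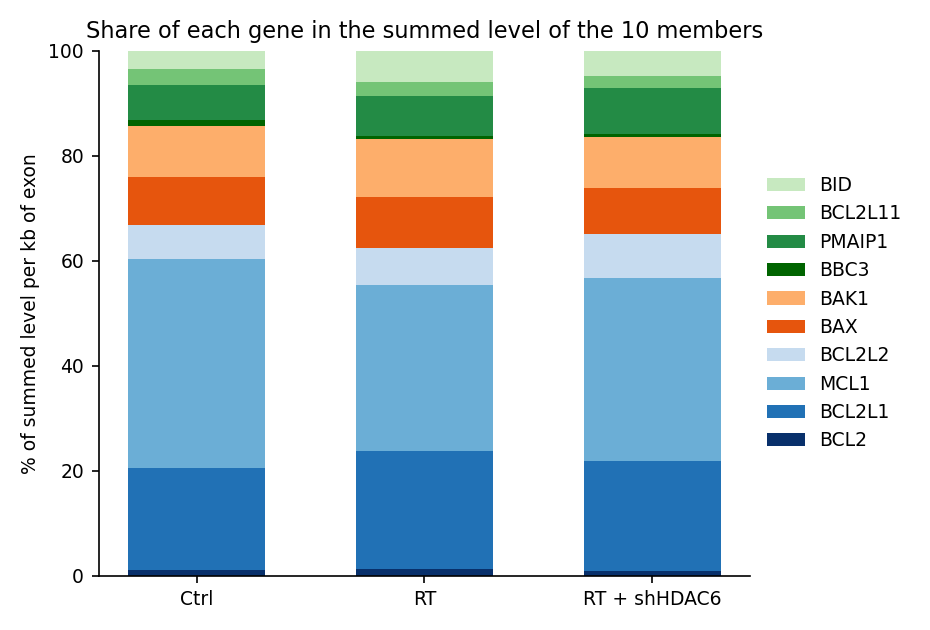
Percent of the summed CPM per kb of the 10 members held by each member (y axis) in Ctrl, RT and RT + shHDAC6 (x axis), as stacked bars. MCL1 holds 39.9%, 31.7% and 34.8%.

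Because both genes of a pair sit in the same library, the ratio of their counts does not depend on the scaling. Each of the 4 anti-apoptotic members was set against each of the 2 effectors, which makes 8 pairs per comparison and 24 changes in all. MCL1 per BAX count went from 10.6 (Ctrl) to 7.92 (RT) and then 9.55 (RT + shHDAC6), a log2 change of -0.42 (-0.54 to -0.30) and then 0.27 (0.14 to 0.39). Against BAK1 it went from 11.4 to 7.98 and 9.98, a change of -0.52 (-0.64 to -0.40) and then 0.32 (0.20 to 0.45). The MCL1 to effector ratio was thus lowest in RT with either effector.

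BCL2 per BAX count moved the other way, from 0.568 to 0.677 and 0.512, a change of 0.25 (0.069 to 0.43) and then -0.40 (-0.60 to -0.21). Against BAK1 the first change of BCL2 was 0.15 (-0.033 to 0.33), an interval that holds 0. The second was -0.35 (-0.54 to -0.15). BCL2L2 per BAX count was 1.33, 1.36 and 1.77, with 0.38 (0.23 to 0.53) between the irradiated libraries and 0.44 (0.28 to 0.59) for the same change against BAK1. BCL2L1 per BAK1 count was 3.75, 3.80 and 4.05, and none of its 3 changes had an interval clear of 0. Of the 8 pairs, 3 changed beyond counting error between Ctrl and RT, with 1 higher and 2 lower in RT. Between RT and RT + shHDAC6 it was 6, with 4 higher and 2 lower, and between Ctrl and RT + shHDAC6 it was 6, with 3 in each direction.

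**Figure D4:**
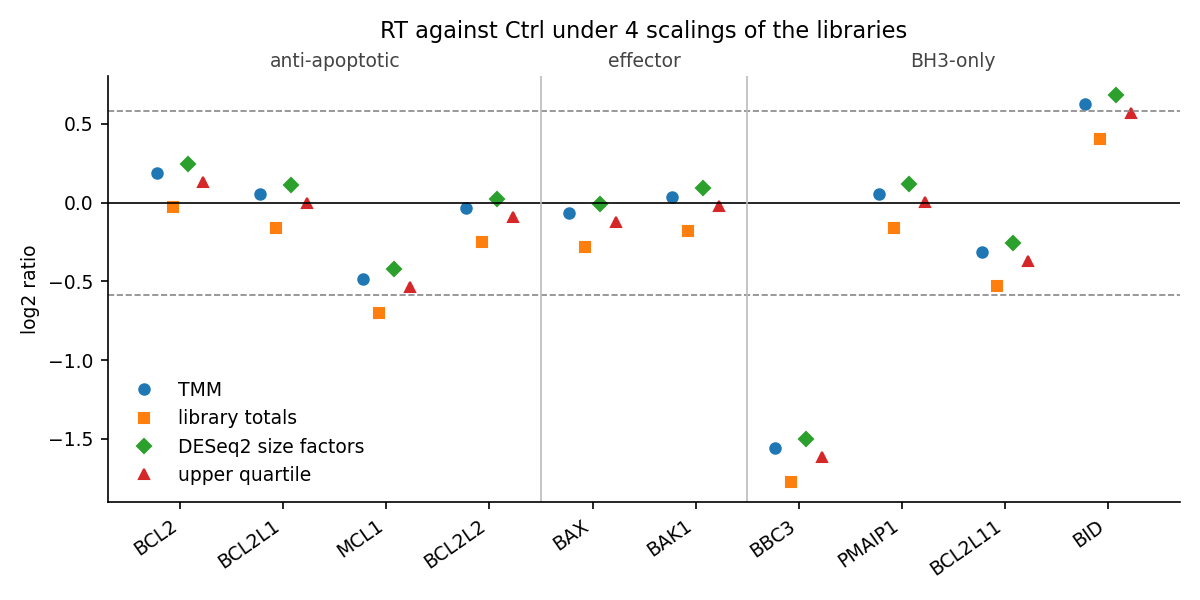
Log2 ratio of RT against Ctrl (y axis) of each member (x axis) under TMM, library totals, DESeq2 size factors and upper quartile scaling, with the 1.5-fold limits as dashed lines. Library totals shift every value by -0.22, which turns BCL2, BCL2L1, BAK1 and PMAIP1 below 0, while BBC3 stays between -1.78 and -1.50.

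The other 14 genes of the wider family were described by the same rule, and BCL2L10 and BCL2L14 had under 10 counts in every library. Of the 12 tested, RT against Ctrl called 0 higher and 2 lower, beside 14.7% and 20.5% of all genes, with a median of -0.21. The 2 were BMF, a BH3-only gene, at 146, 37 and 41 counts, and BNIP3L, a mitophagy receptor, at 5364, 1777 and 2370 counts. BMF had a log2 ratio of -1.55 (-2.11 to -1.02) in RT and -1.46 (-2.00 to -0.95) in RT + shHDAC6, both against Ctrl. BNIP3L had -1.16 (-1.24 to -1.08) and -0.81 (-0.88 to -0.74). BMF was thus low in both irradiated libraries, as BCL2L11 was, whereas BNIP3L, like BBC3 and MCL1, was higher in RT + shHDAC6 than in RT, at 0.35. RT + shHDAC6 against RT called 1 of the 12 higher and 1 lower, beside 11.2% and 11.3% of all genes. They were BCL2A1 at 13, 7 and 14 counts and BCL2L15 at 52, 41 and 24, named here after their values were seen. With so few reads these carry little weight. Against Ctrl the knockdown library had 1 of the 12 higher, HRK at 10, 9 and 12 counts, and 4 lower, which were BMF, BNIP3L, BCL2L15 and BIK (10, 5 and 4 counts). HRK and BIK were likewise named after their values were seen, and the median of the 12 was -0.16. The shares of all genes were 14.0% higher and 20.6% lower.

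Downstream of the mitochondrion, 0 of the 7 apoptosome and caspase genes were called in RT against Ctrl, where 14.7% of all genes were higher and 20.5% lower, and 0 in RT + shHDAC6 against RT, where 11.2% were higher and 11.3% lower. CASP9, the initiator caspase of the apoptosome, had 651, 335 and 279 counts and was called lower in RT + shHDAC6 against Ctrl at -0.85 (-1.06 to -0.64). In that comparison 20.6% of all genes were called lower. Of the 9 released factors and inhibitors of apoptosis, 2 were called higher in RT and 0 lower, beside the same 14.7% and 20.5%. They were ENDOG, a mitochondrial nuclease, at 214, 259 and 217 counts (0.71), and BIRC2, which encodes cIAP1, at 2517, 2934 and 3836 counts (0.66). With library totals both were under 1.5-fold, at 0.49 and 0.44. BIRC2 and its neighbour BIRC3, which encodes cIAP2, were called higher in RT + shHDAC6 against Ctrl, at 0.98 and 0.79, where 14.0% of all genes were. Neither was called against RT.

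Of the 5 outer membrane partners, BCAP31, an endoplasmic reticulum protein that BCL2 binds, was called higher in RT and in RT + shHDAC6 against Ctrl. Its ratios were 0.97 and 0.70, where 14.7% and 14.0% of all genes were called higher. It had 5118, 7409 and 6441 counts. The list of MCL1 turnover genes (ubiquitin ligases and a deubiquitinase) had 5 tested genes, and none was called in any of the 3 comparisons, beside backgrounds of 11.2% to 20.6% per direction. TRIM17 of that list had under 10 counts in every library.

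Among 11 transcription factors known to act on family genes, RT against Ctrl called 1 higher and 3 lower, beside 14.7% and 20.5% of all genes. TP73 was higher, at 520, 593 and 891 counts (0.62 in RT, 1.15 in RT + shHDAC6, both against Ctrl), though only 0.41 in RT with library totals. FOXO1, which transcribes BCL2L11, was lower at -0.67 in RT and -0.68 in RT + shHDAC6 against Ctrl. ATF4, a stress factor, was lower at -0.68 in RT with 9375, 4325 and 5963 counts. The other was TP63, at 92, 29 and 28 counts, named here after its value was seen. In RT + shHDAC6 against Ctrl 2 were called higher, TP73 and MYC (0.67), and 2 lower, FOXO1 and TP63, beside 14.0% and 20.6% of all genes. None of the 11 was called between the irradiated libraries.

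**Figure D5:**
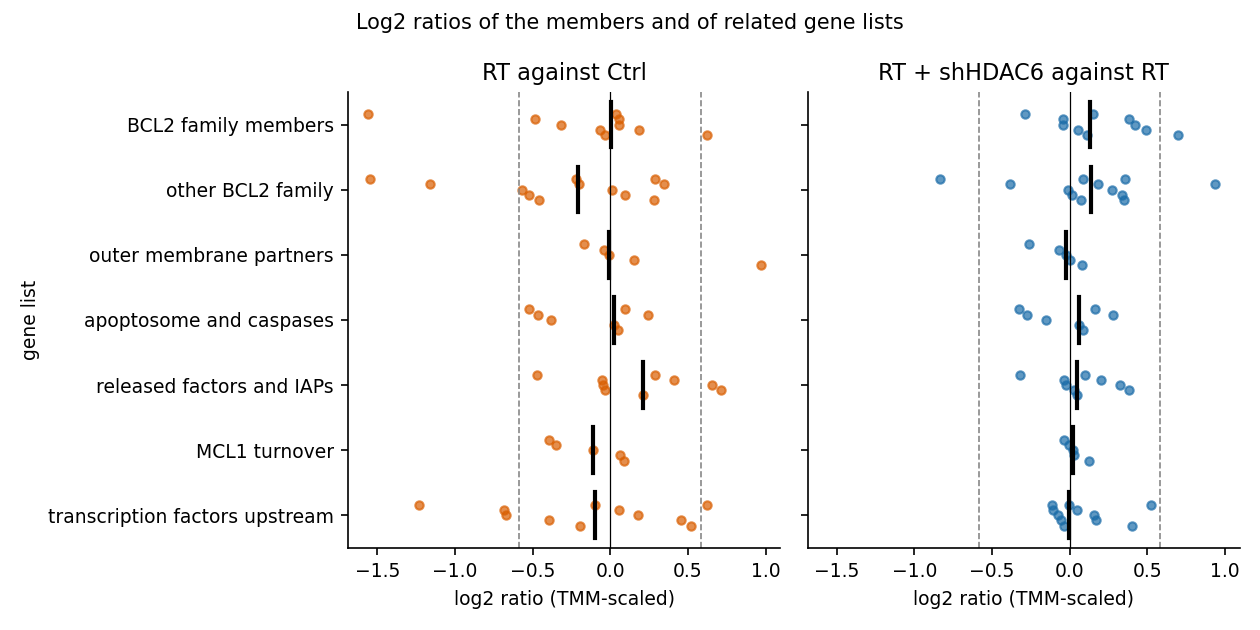
Log2 ratio of TMM-scaled counts (x axis) of every tested gene of the 10 members and of the related lists named on the y axis, which leave out the marker lists, for RT against Ctrl (left) and RT + shHDAC6 against RT (right), 1 point per gene, with list medians as bars and the 1.5-fold limits as dashed lines. The plotted medians lie between -0.21 and 0.21, and single genes such as BMF at -1.55 and BCAP31 at 0.97 in RT against Ctrl lie well outside that range.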

How the data were processed

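RNA from 3 T24 cultures, 1 per condition, was sequenced. The authors deposited raw read counts per gene, made with featureCounts on GENCODE release 28 after cutadapt trimming and STAR alignment to GRCh38. STAR is version 2.6.1a in the submitters' processing notes, and the methods name another version. The labels and the methods name different stranded library kits, and neither the strand setting nor the handling of multi-mapping reads is given in the sources used here. All sample columns were used (0 left out).

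TMM factors came from edgeR 4.0.16 (R 4.3.3) over all genes and all 3 libraries, and log2 ratios, CPM and 95% Clopper-Pearson intervals were computed from the counts in Python 3.11.15 with scipy 1.17.1. Intervals of single levels are exact Poisson, and those of changes in the ratio of paired genes use the normal approximation on the log scale from the 4 counts. A count of 0 was set to 0.5. Genes with at least 10 counts in any library were tested against the 1.5-fold limit, which stands in place of the NOISeq probability of the study. No edgeR or DESeq2 test could be made with 1 library per condition, and whether the libraries vary like separate cultures is unknown. Reads carry no molecular identifiers, so the intervals cover counting error only, and 3 counts corresponded to 0.0662 to 0.0894 CPM. Ratio code was tested on simulated data. Exon lengths, gene positions, overlaps and coding sequence came from GENCODE release 44, in which 57754 of the gene IDs were found.

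The members and lists were chosen with earlier results of these data known. Besides the members and HDAC6, genes of the lists were named where they passed 1.5-fold in any comparison and the higher of the compared libraries had 100 counts or more. Alternatives were library totals, DESeq2 1.42.0 size factors, upper quartile scaling, a 2-fold limit, other count minimums, another value for 0, the longest transcript as length, and leaving out members that share exons. Results that need an item withheld for evaluation are not reported here.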

Additional observations from a re-analysis of the deposited data

How the results depend on the processing

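Of the 30 member log2 ratios, only those of BBC3 in all 3 comparisons and of BID in RT against Ctrl passed 1.5-fold. None of these changed sign under another scaling. Among all 10 members the sign varied with the scaling for 5 in RT against Ctrl. It varied for 2 in RT + shHDAC6 against RT and for 2 in RT + shHDAC6 against Ctrl. Library totals moved 19 of the 30 beyond their counting interval, DESeq2 size factors 2 and upper quartile scaling 1. No member had a count of 0, so another value for 0 could not move any member ratio. In RT against Ctrl library totals gave a member median of -0.215, 0 members higher and 2 lower, with 8.48% of all genes higher and 31.3% lower. Upper quartile scaling also left 0 members higher. In RT + shHDAC6 against Ctrl library totals gave a member median of -0.0633, and DESeq2 size factors gave 1 member higher (BID). With a 2-fold limit 0 members were higher in RT against Ctrl, 0 were higher in RT + shHDAC6 against RT and 0 were lower in RT + shHDAC6 against Ctrl. That limit left 4.99% of all genes higher and 9.2% lower in the first comparison, 5.04% and 5.84% in the second and 4.97% and 10.5% in the third. A minimum of 100 counts gave 10.1% lower in the first comparison, 3.27% higher and 5.76% lower in the second and 11.7% lower in the third. With no minimum 20.3% were higher and 19.4% lower in the second and 30.9% lower in the third.

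With the longest transcript as length the anti-apoptotic share was 65.8%, 61.3% and 64.1% for Ctrl, RT and RT + shHDAC6. Leaving out members that share exons with another gene removes MCL1, BCL2L1 and BCL2L2 along with BAK1, BBC3 and BCL2L11. The anti-apoptotic share was then that of BCL2 alone, at 5.22%, 5.44% and 3.97%. RT was the highest of these 3, where it was the lowest with all members. A share of BCL2 alone cannot check one that includes MCL1. No paired analysis was possible because each condition has 1 library. Depth limits BBC3 most, at 59 to 235 counts, and nothing here measures the spread between cultures.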

Other observations

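KRT7, a keratin of simple and transitional epithelium, differed between the irradiated libraries by more than any BCL2 family member. It had 3533 counts without irradiation, 3854 with it and 597 when HDAC6 was targeted too. Set against RT, the knockdown library stood at -2.75 on the log2 scale (95% counting interval -2.88 to -2.63). GATA3, a transcription factor of luminal urothelium, had 2320, 1423 and 709 counts, with -1.07 (-1.20 to -0.94) against RT. PPARG, a nuclear receptor of the same lineage, had 1298, 650 and 352 counts, with -0.95 (-1.14 to -0.76) against RT. The intervals of GATA3 and PPARG overlap in size with that of BBC3 (0.22 to 1.19).

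Most of the epithelial list did not share that direction. KRT8 stood at 0.35, KRT19 at 0.39, KRT5 at 0.36, EPCAM at 0.51, FOXA1 at 0.29, CDH1 at 0.23 and KRT18 at 0.052 against RT, none of them called, and the median of the 11 tested genes was 0.23. HDAC6 itself differed by -0.20 between the same libraries. These differences have no replicate check, and their relation to the family genes was not tested.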
